A study of Homo sapiens with 4 samples.

Results

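The promoters of the 4 human HOX clusters were examined in 4 ChIP-chip arrays that set chromatin from HEK293 cells induced for HA-tagged RPF-1 against chromatin from uninduced cells. A promoter here is a design region, a stretch of 2450 to 2753 bp for these members that the array tiles and that the files name. Members were all design regions with at least 5 probes starting inside 1 of 4 coordinate windows, 1 around each cluster. They reached from 27101719 to 27208371 on chromosome 7 (HOXA), from 43962771 to 44163243 on chromosome 17 (HOXB), from 52616642 to 52734376 on chromosome 12 (HOXC) and from 176663577 to 176762001 on chromosome 2 (HOXD). Coordinates are those of the files, whose genome build is not given in their headers. This gave 45 of the 18008 design regions with that many probes: 14 in HOXA, 12 in HOXB, 10 in HOXC and 9 in HOXD. They held 1091 probes, between 22 and 27 each, and all but 1 of those probes carried a match count of 1 in the files. No member lay near the minimum of 5 probes.

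The line is a stable transfectant of HEK293, an established human embryonic kidney line, in which leaving out tetracycline switches on the tagged factor. The induced group (Tet-) was kept 48 h in medium depleted of tetracycline, and the uninduced group (Tet+) was kept 48 h with it. Both carry the same transgene and both were precipitated with the same anti-HA antibody. The ratio of induced (Cy5) to uninduced (Cy3) signal is therefore the comparison, and the uninduced cells are the background on every array. Induced DNA was in Cy5 on every array, so an effect of induction cannot be told apart from one of dye. The labels do not say whether the line is 1 clone, nor that each chromatin preparation was a culture of its own, so every p-value here rests on array-to-array spread, which may be technical. Arrays 1 and 2 carry the series name N39 and arrays 3 and 4 the name N44.

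HOX genes encode homeodomain transcription factors that give cells their position along the head-to-tail axis. In each cluster the genes lie in the order of their numbers, are transcribed in one direction, from the high-numbered (posterior) end towards the low-numbered (anterior) end, and their promoters are rich in CpG and often carry Polycomb marks in cells that do not use them. Several posterior HOX genes are needed for kidney formation. RefSeq lists 39 protein-coding HOX genes, 11 in HOXA, 10 in HOXB, 9 in HOXC and 9 in HOXD. HOXA13 and HOXB13 lie at the high-coordinate end of their clusters, and HOXC13 and HOXD13 at the low-coordinate end. No annotation or genome of the files' build was used here, so design regions are numbered within a cluster from the low-coordinate end, no gene is named for one, exons and introns are not assigned, and no sequence is printed.

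As a group, the HOX promoters were not told apart from the rest of the array. Of the 45 members, 5 had a higher ratio in induced cells and 4 a lower one (limma across 18008 design regions, Benjamini-Hochberg adjusted p under 0.05). That is 11.1% and 8.89%, against 13.7% higher and 13.5% lower over all design regions. The median log2 ratio was -0.010 for the HOX members and -0.0029 for the other 17963 regions. The mean of the HOX members minus the mean of all others was 0.14, -0.098, -0.12 and -0.0063 in arrays 1 to 4, which averages -0.020 ± 0.117 (SD, n = 4, exact sign-flip test, two-sided p = 0.875). Array 1 lay on the other side of 0 from the rest, and without it the mean difference was -0.073. The members' means ran from -0.56 to 0.34, inside the range of -1.25 to 1.31 of the other regions. With 4 arrays, the smallest two-sided p that an exact sign-flip test can give is 1 in 8, printed as 0.13 after rounding.

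**Figure D1:**
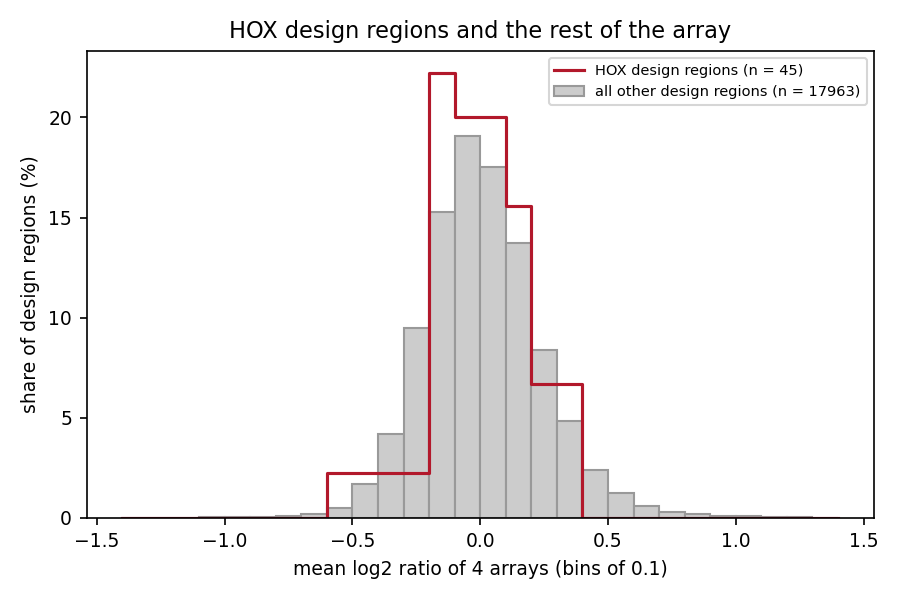
Share of design regions (vertical axis, percent) by mean log2 ratio of the 4 arrays (horizontal axis, steps of 0.1) for 45 HOX design regions (red line) and 17963 others (grey bars). The HOX members lie around 0, with none below -0.56 or above 0.34.

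The direction of the ratio was shared by all 4 arrays in 22 of the 45 members. It was above 0 in all 4 arrays in 10 members (22.2%) and below 0 in all 4 in 12 (26.7%), against 20.7% and 24.2% of all design regions. The order of the members was alike from array to array. Pearson's r between arrays, taken across the 45 members, was 0.766 in the median of the 6 pairs (0.611 to 0.789). Taken across all 18008 regions it was 0.608 (0.378 to 0.731). Both are descriptions over regions that share arrays, probes' base composition and chromatin preparations.

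The 4 cluster means differed, though with 4 arrays no difference between them could pass 0.05. HOXB and HOXC lay above HOXA and HOXD in every array. The HOXA mean was 0.087, -0.10, -0.13 and -0.12 in arrays 1 to 4, or -0.066 ± 0.102 (SD, n = 4). The HOXB mean was 0.20, 0.0028, 0.00017 and 0.054, or 0.065 ± 0.096, with arrays 2 and 3 close to 0. The HOXC mean was 0.28, -0.022, -0.0074 and 0.11, or 0.090 ± 0.141. The HOXD mean was -0.050, -0.23, -0.17 and -0.072, or -0.13 ± 0.084. HOXD was the one cluster below 0 in all 4 arrays, and HOXB the one above 0 in all 4 (exact sign-flip p = 0.13 for each, adjusted p = 0.375 over 6 levels tested).

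All 6 pairs of clusters were compared within arrays. HOXC exceeded HOXD by 0.33, 0.21, 0.16 and 0.18 log2 in arrays 1 to 4, a mean of 0.22 ± 0.077 (SD, n = 4), or 1.17-fold. HOXB exceeded HOXD by 0.25, 0.23, 0.17 and 0.13, a mean of 0.20 ± 0.059. HOXA lay below HOXB by 0.13 ± 0.029 and below HOXC by 0.16 ± 0.067, in 4 of 4 arrays each. For these 4 pairs the exact sign-flip p was 0.13, the smallest possible, and 0.188 after Benjamini-Hochberg adjustment over the 6 pairs, so none passes a threshold of 0.05. HOXA minus HOXD was 0.065 ± 0.086, above 0 in 3 of 4 arrays (exact p = 0.375, adjusted p = 0.45). HOXB minus HOXC was -0.025 ± 0.049, with 2 arrays on each side of 0 (exact p = 0.5, adjusted p = 0.5). The first 4 differences had the same sign in both array series.

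**Figure D2:**
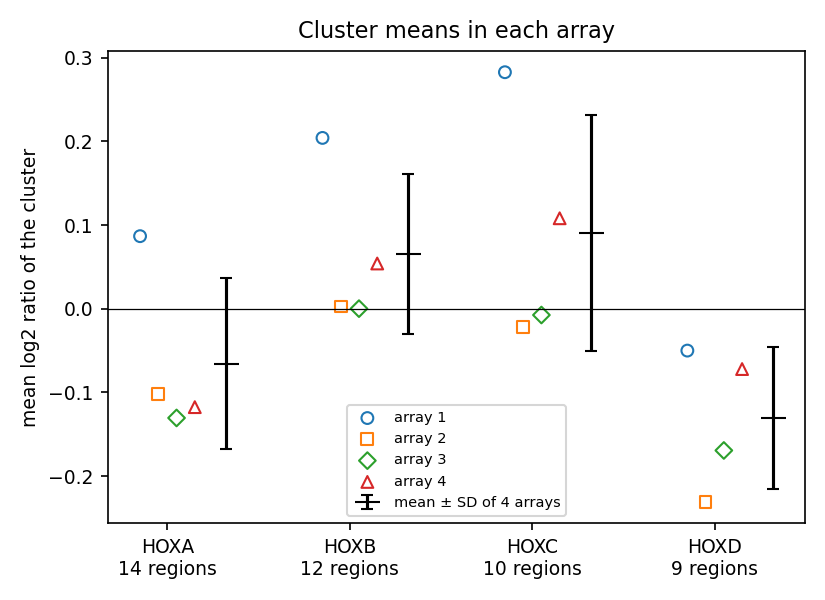
Mean log2 ratio of each HOX cluster (vertical axis) in arrays 1 to 4 (symbols), with the mean ± SD of the 4 arrays (black bars). HOXB and HOXC lie above HOXA and HOXD within every array, while array 1 is the highest of the 4 arrays in each cluster.

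Array 1 stood above the others at the HOX promoters. It gave the highest of the 4 values in 34 of the 45 members, with 1 further member tied for the highest, and it gave the lowest in none. Over all design regions array 1 was the highest in 29.6%. The mean over the 45 members was 0.13 in array 1, -0.082 in array 2, -0.076 in array 3 and -0.012 in array 4. Without array 1, HOXA was at -0.12, HOXB at 0.019, HOXC at 0.026 and HOXD at -0.16, so the order of the clusters stayed and the level of HOXB and HOXC came close to 0. The labels give numbered chromatin preparations for arrays 2 to 4 and none for array 1.

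The ratio of the genome around each cluster was compared with the cluster, using design regions within 1 Mb of either side of the window. HOXC lay in the highest surroundings: its 38 flanking regions averaged 0.19 ± 0.071 (SD, n = 4), and 16 of them were called higher and 1 lower. The 34 flanks of HOXB averaged 0.12 ± 0.063, with 8 called higher and 2 lower. The 8 flanks of HOXA averaged 0.077 ± 0.079, with 1 called higher. The 4 flanks of HOXD averaged -0.11 ± 0.060, with 2 called lower. For these counts, the shares over all design regions were 13.7% higher and 13.5% lower. Against their flanks, HOXA stood at -0.14 ± 0.061 and below 0 in 4 of 4 arrays, HOXC at -0.10 ± 0.16, HOXB at -0.050 ± 0.089 and HOXD at -0.021 ± 0.101. HOXC and HOXD, which differed most in level, overlapped once each was set against its own surroundings. HOXC, the higher in level, was then the lower in the mean. In arrays 1 to 4 HOXC stood at 0.078, -0.31, -0.12 and -0.058, and HOXD at 0.083, -0.061, -0.14 and 0.036. The mean of the 4 clusters against their flanks was -0.079 ± 0.082 (exact sign-flip p = 0.25, adjusted p = 0.375). It depended on the width of the flanks, at -0.013 with flanks of 500 kb and -0.066 with flanks of 2 Mb. The part of these surroundings in the differences between clusters was not tested.

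Of the 4 lower members, 3 were low in every array and kept their calls whichever array was left out. The lowest HOX promoter was region 2 of HOXD, the second from the HOXD13 end, on chromosome 2 from 176670575 to 176673224. Its 26 probes averaged -0.45, -0.58, -0.58 and -0.62 in arrays 1 to 4, or -0.56 ± 0.072 (SD, n = 4), which is 1.47-fold lower in induced cells (limma adjusted p = 0.000696). All 4 arrays lay close together, and the region stood at percentile 0.525 of all design regions, counted at mid-rank. Of its 5 bins of 500 bp, 4 were called lower, from -0.80 at the first to -0.48. Its neighbours on either side, regions 1 and 3 of HOXD, were at -0.17 and -0.13 and were not called.

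The called lower members of HOXA lay near its middle (region 8) and towards its HOXA13 end (region 11). Region 8, on chromosome 7 from 27153493 to 27156047, gave -0.41, -0.42, -0.52 and -0.64, or -0.50 ± 0.11, 1.41-fold lower (limma adjusted p = 0.00163). Region 11, from 27179948 to 27182597, gave -0.32, -0.34, -0.40 and -0.47, or -0.38 ± 0.067, 1.30-fold lower (limma adjusted p = 0.0036). In each, every array was well below 0, and the series N39 arrays lay above the series N44 arrays. Region 8 had 3 of 5 bins called lower and region 11 had 4 of 5, the latter in 1 unbroken run from 27180448 to 27182397 with a mean of -0.54 ± 0.050. With 1 array left out, the adjusted p of HOXA regions 8 and 11 and HOXD region 2 reached at most 0.0196, 0.0372 and 0.0106 (limma). The fourth lower member, HOXB region 5 on chromosome 17 from 44025617 to 44028066, gave -0.20, -0.32, -0.31 and -0.054, or -0.22 ± 0.12 (limma adjusted p = 0.0481). Its call was lost whichever of arrays 1 to 4 was left out (adjusted p 0.0787 to 0.179).

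The 5 higher members lay closer to 0 than the 3 strongest lower ones, with means from 0.26 to 0.34. The highest HOX promoter was HOXB region 2, the second from the HOXB1 end, on chromosome 17 from 43976891 to 43979540. It gave 0.62, 0.16, 0.27 and 0.29, or 0.34 ± 0.20, 1.26-fold higher (limma adjusted p = 0.015). Array 1 stood apart there, and the mean without it was 0.24. The call was kept without array 1, 2 or 3 and lost without array 4 (adjusted p = 0.0662). Its neighbour, HOXB region 1 from 43962771 to 43965222, gave 0.36, 0.27, 0.22 and 0.19, or 0.26 ± 0.075 (limma adjusted p = 0.02), the most even of the higher members. Its call was kept without array 3 and lost without array 1, 2 or 4 (adjusted p up to 0.0758).

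Of its 10 members, HOXC had 2 higher and 0 lower, against 13.7% higher and 13.5% lower over all design regions. Region 8, on chromosome 12 from 52706260 to 52708909, gave 0.49, 0.19, 0.11 and 0.44, or 0.31 ± 0.19 (limma adjusted p = 0.0197). Region 10, at the end away from HOXC13, from 52731727 to 52734376, gave 0.45, 0.12, 0.34 and 0.25, or 0.29 ± 0.14 (limma adjusted p = 0.0179). Both were above 0 in all 4 arrays, with arrays 2 and 3 low in region 8 and array 2 low in region 10. HOXA region 4, on chromosome 7 from 27125239 to 27127891, gave 0.57, 0.44, 0.053 and 0.21, or 0.32 ± 0.23 (limma adjusted p = 0.0247). Here both series N39 arrays were above both series N44 arrays. HOXC region 8 and HOXA region 4 kept their calls without array 3 and lost them without array 1, 2 or 4 (adjusted p up to 0.13 and 0.12, limma). HOXC region 10 lost its call without array 1 or 4 (adjusted p up to 0.0778).

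The counts of higher and lower members thus differed in how they held. The lower count was 3 with each array left out. Over all design regions 11.1%, 5.15%, 14.4% and 4.44% were lower without arrays 1 to 4. The higher count was 1 without array 1, 2 without array 2, 8 without array 3 and 0 without array 4, where limma gave 5 members higher at an unadjusted p under 0.05. Over all design regions 13.1%, 6.33%, 14.5% and 6.2% were higher without arrays 1 to 4, so the share itself moved with the array left out. Series N39 alone called 3 members higher and 3 lower, and series N44 alone 0 higher and 3 lower, with 4 higher at an unadjusted p under 0.05. The shares of all design regions were 9.82% higher and 8.86% lower in N39, and 10.7% and 7.1% in N44.

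**Figure D3:**
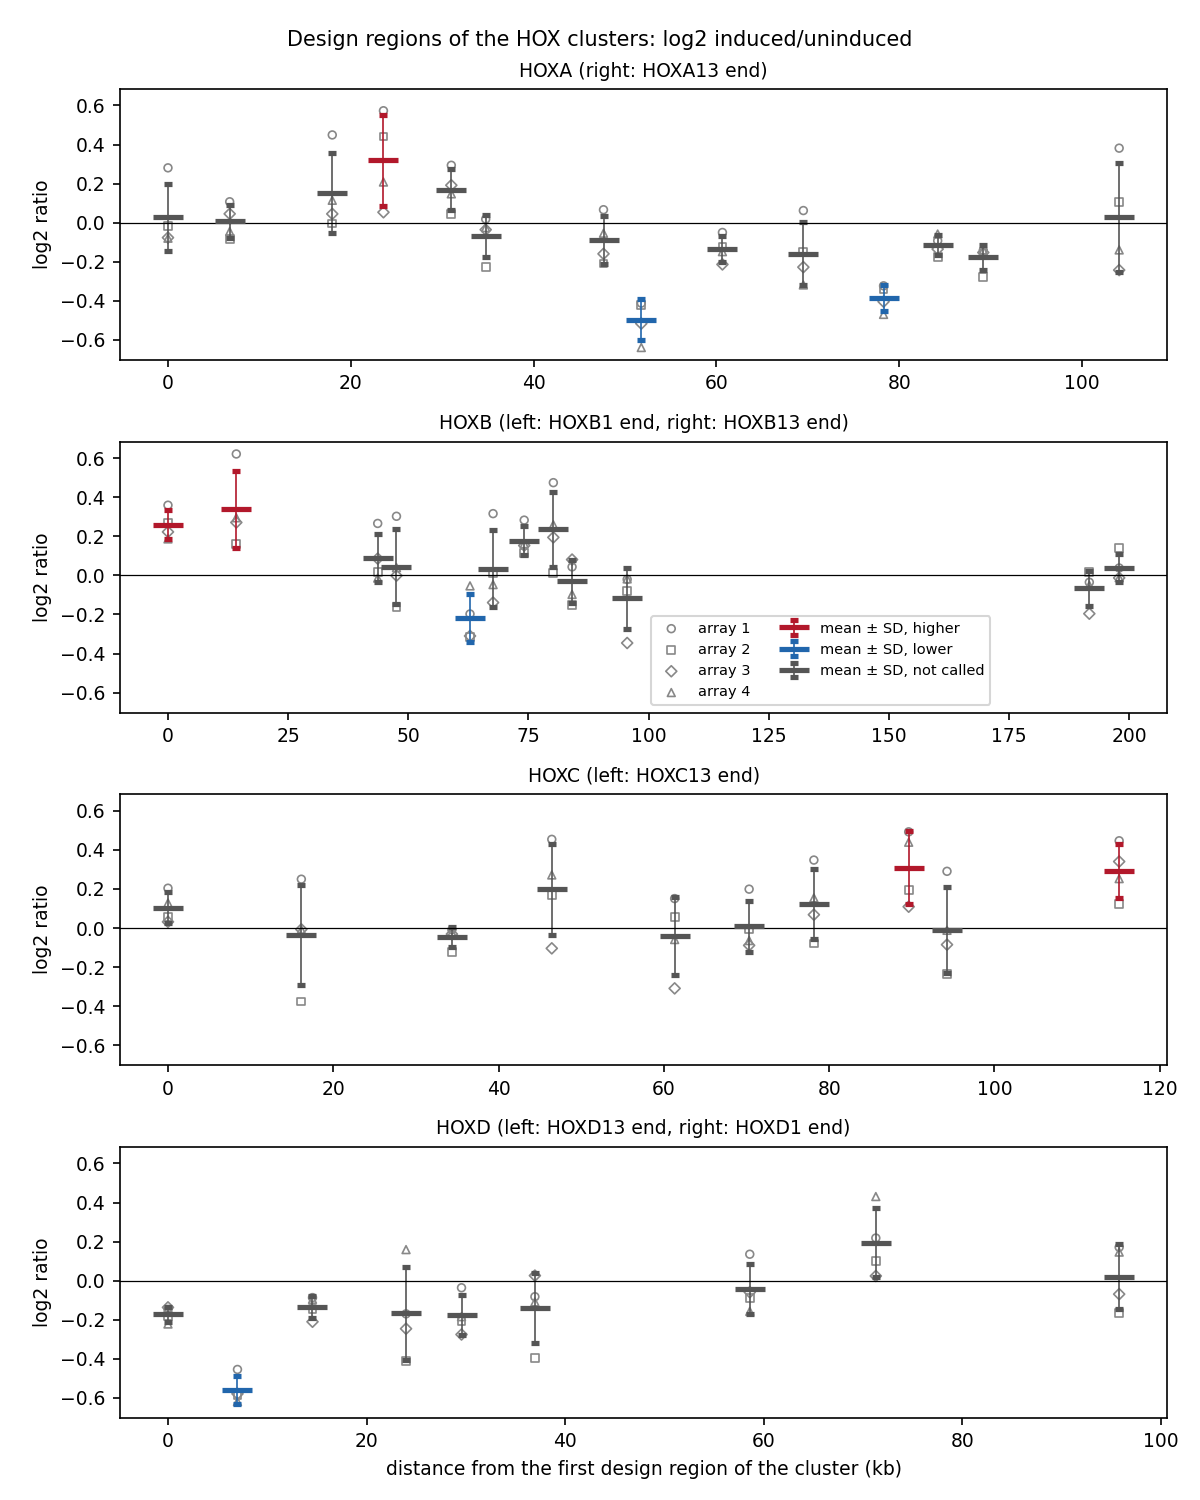
Log2 ratio of every HOX design region (vertical axis) against its distance from the first region of its cluster (horizontal axis, kb). Grey symbols are the 4 arrays and coloured bars the mean ± SD, red for called higher, blue for called lower. The lower members of HOXA lie in its middle and towards its HOXA13 end, that of HOXD near its HOXD13 end, and the higher members of HOXB at its HOXB1 end. The lower member of HOXB, region 5, also lies nearer its HOXB1 end than its HOXB13 end.

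The other 36 members did not pass the test. Their means ran from -0.18 to 0.17 in HOXA (11 members), from -0.12 to 0.24 in HOXB (9), from -0.046 to 0.20 in HOXC (8) and from -0.18 to 0.19 in HOXD (8). The lowest member of HOXC, region 3 from 52650995 to 52653644, gave -0.0085, -0.12, -0.031 and -0.022, or -0.046 ± 0.051 (limma adjusted p = 0.65). Among its 10 members, HOXC therefore held no promoter near the lowest values seen in HOXA and HOXD. With 13.5% of all design regions called lower, the lack of a lower call among 10 members is not read as a trait of HOXC. The highest member of HOXD, region 8 from 176734850 to 176737499, gave 0.22, 0.10, 0.024 and 0.43, or 0.19 ± 0.18 (limma adjusted p = 0.0971). It was the only member of HOXD above 0 in all 4 arrays, and its value moved with the array left out. Without array 3 its mean was 0.25 and it was called higher (limma adjusted p = 0.0367), and without array 4 its mean was 0.12 (limma adjusted p = 0.444).

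The ratio was then followed along each cluster, divided at its midpoint into a posterior part, towards HOX13, and an anterior part. In all 4 clusters the mean of the posterior part was the lower. In HOXD the 6 posterior regions averaged -0.22 ± 0.071 and the 3 anterior ones 0.058 ± 0.117. The difference was -0.34, -0.27, -0.20 and -0.32 in arrays 1 to 4, or -0.28 ± 0.060 (SD, n = 4), larger than its spread. The medians over regions, -0.17 and 0.021, lay in the same order. In HOXA the 6 posterior regions averaged -0.16 ± 0.092 and the 8 anterior ones 0.0026 ± 0.113. That difference was -0.20, -0.10, -0.17 and -0.17, or -0.16 ± 0.042, again alike in all arrays. Region 8, the lowest HOXA member, starts just before the midpoint and is counted among the anterior ones.

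The other clusters varied less along their length. HOXC had 4 posterior regions at 0.055 ± 0.132 and 6 anterior ones at 0.11 ± 0.15, a difference of -0.058 ± 0.034 with the same sign in 4 of 4 arrays. HOXB had only 2 posterior regions, with no member between 44060869 and 44154381, at -0.014 ± 0.075, and 10 anterior ones at 0.081 ± 0.114. Its difference was -0.096 ± 0.138, with array 2 on the other side of 0. The exact sign-flip p was 0.13 for HOXA, HOXC and HOXD and 0.25 for HOXB, or 0.167 and 0.25 after adjustment over the 4 clusters. None passes 0.05, and with 4 arrays none could.

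At the scale of sheared chromatin, about 500 bp, single members held both higher and lower stretches. The members were cut into 220 bins of 500 bp with at least 3 probes each. In induced cells 34 of them had a higher ratio (15.5%) and 37 a lower one (16.8%; limma across 77324 bins, adjusted p under 0.05), against 17.0% and 16.4% of all bins. HOXB and HOXC had more higher than lower bins, and HOXA and HOXD more lower than higher ones. HOXC had 8 bins higher and 2 lower of 49, HOXB 9 and 6 of 58, HOXD 9 and 12 of 44, and HOXA 8 and 17 of 69. In 13 of the 45 members a higher and a lower bin lay in the same promoter, 6 of them among the 9 of HOXD. That is 28.9% of the members, against 18.4% of all design regions with bins, and the members had more bins each (4.89 against 4.29 in the others). The difference in share was not tested. Without array 1 the higher count was 8 and without array 4 it was 18, while the lower count stayed between 27 and 34 with any 1 array left out. The shares of all bins with an array left out are not given here, so these counts do not show a change particular to HOX.

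Of the highest and lowest bins of the 4 clusters, 8 in all, 6 lay in promoters that were not called as a whole. In HOXA the highest bin was in region 2, from 27110419 to 27110868. It gave 0.84, 1.38, 0.86 and 1.20, or 1.07 ± 0.27 (limma adjusted p = 0.000236). All 4 arrays were high there, yet region 2 as a whole stood at 0.0065, and 2 of its other bins were called lower, down to -0.67. The lowest bin of HOXA was in region 8, from 27154993 to 27155445, at -0.92, -0.78, -0.92 and -1.48, or -1.02 ± 0.31 (limma adjusted p = 0.000322). Array 4 was the lowest of the 4 there.

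In HOXB the lowest bin was at the low-coordinate edge of region 10, from 44058216 to 44058665, with -0.81, -1.05, -0.89 and -0.78, or -0.88 ± 0.12 (limma adjusted p = 0.000365). Its promoter as a whole was at -0.12 and was not called. The highest bin of HOXB, in region 4 from 44011242 to 44011691, was at 0.57 ± 0.33, with array 1 at 1.03 and the others at 0.24 to 0.55 (adjusted p = 0.0079, limma). In HOXC the highest bin was in region 8, from 52706760 to 52707209, at 0.61 ± 0.34, and the lowest in region 7, from 52694739 to 52695188, at -0.64 ± 0.11. In both clusters the highest bin was more uneven between arrays than the lowest.

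The highest and the lowest bin of HOXD both lay within its posterior part. Bins far from 0 were not confined to that part. In the anterior part, region 7 held a called bin at -0.83 and region 8 one at 0.67. The lowest bin of HOXD was in region 3, from 176680129 to 176680478, with -0.99, -1.09, -0.83 and -0.56, or -0.87 ± 0.23 (limma adjusted p = 0.000531). The highest was in region 5, from 176693133 to 176693582, with 1.14, 0.86, 0.30 and 0.62, or 0.73 ± 0.36 (limma adjusted p = 0.00236). Region 5 also held a run of 2 lower bins from 176694633 to 176695582 at -0.52 ± 0.047, and its overall mean was -0.18. Among the members, the longest run of adjacent called bins in 1 direction had 4 bins (HOXA region 11, lower). There were 2 runs of 3 bins (HOXD region 2, lower, and HOXB region 2, higher) and 4 of 2 bins. How often such runs occur over all design regions was not counted. The run in HOXB region 2 was 0.89 in array 1 and 0.11, 0.33 and 0.37 in the others.

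**Figure D4:**
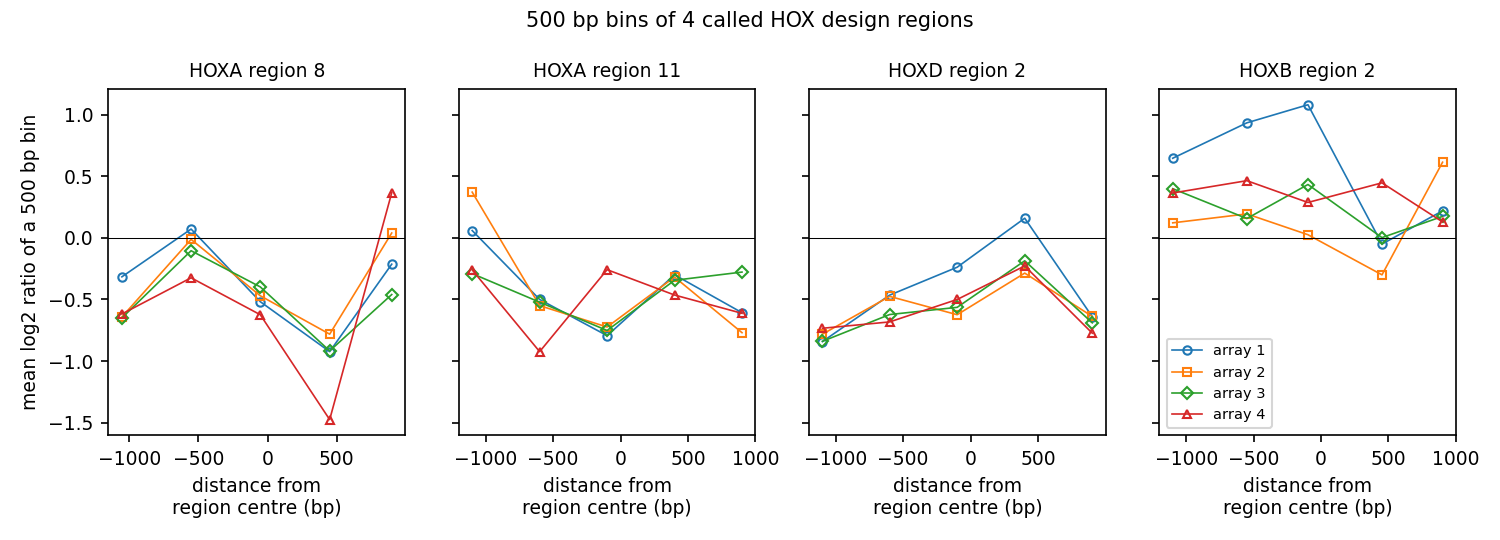
Mean log2 ratio of each 500 bp bin (vertical axis) against its distance from the region's centre (horizontal axis, bp) in arrays 1 to 4 for 3 members called lower and 1 called higher. In the lower members the 4 arrays follow one another through most bins, while in HOXB region 2 array 1 is above the others over the first 3 bins.

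The 2 sides of the promoters were compared after their profile had been seen, with the low-numbered side being the side towards which the HOX genes are transcribed. No gene was assigned to a member, and the 45 members outnumber the 39 HOX genes. Whether each member serves a gene transcribed in that direction is therefore not known. In the mean, the low-numbered side was lower than the side facing HOX13 in all 4 clusters. It was lower by 0.19 ± 0.044 in HOXA (4 of 4 arrays), by 0.15 ± 0.069 in HOXD (4 of 4), by 0.084 ± 0.058 in HOXC (3 of 4) and by 0.054 ± 0.063 in HOXB (3 of 4). The exact sign-flip p was 0.13 for HOXA and HOXD and 0.25 for the other two, and 0.25 for each after adjustment over the 4 clusters. In HOXA the low-numbered side averaged -0.16 and the other 0.025. In HOXD the values were -0.20 and -0.053.

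Promoter by promoter, 11 of the 45 members had a low-numbered side called lower than the other and 4 had it called higher (limma across 17662 design regions with both sides measured). Over all design regions, which could not be turned by the direction of their genes here, the high-coordinate side was called higher in 17.0% and lower in 18.3%. Those shares set no rate for counts turned by direction, and the difference between 11 and 4 was not tested. The low-numbered side was called lower in 5 members of HOXA and higher in 1. The counts were 3 and 1 in HOXD, 2 and 2 in HOXC, and 1 and 0 in HOXB. The strongest was HOXA region 2, with a difference of -0.65, -0.96, -0.66 and -1.15, or -0.85 ± 0.24 (adjusted p = 0.000212, limma). HOXD region 5 followed at -0.74 ± 0.22 and HOXC region 4 at -0.69 ± 0.26. In the opposite direction, HOXC region 7 stood at 0.51 ± 0.17 and HOXA region 13 at 0.45 ± 0.031. The sides therefore differed in single promoters in both directions.

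**Figure D5:**
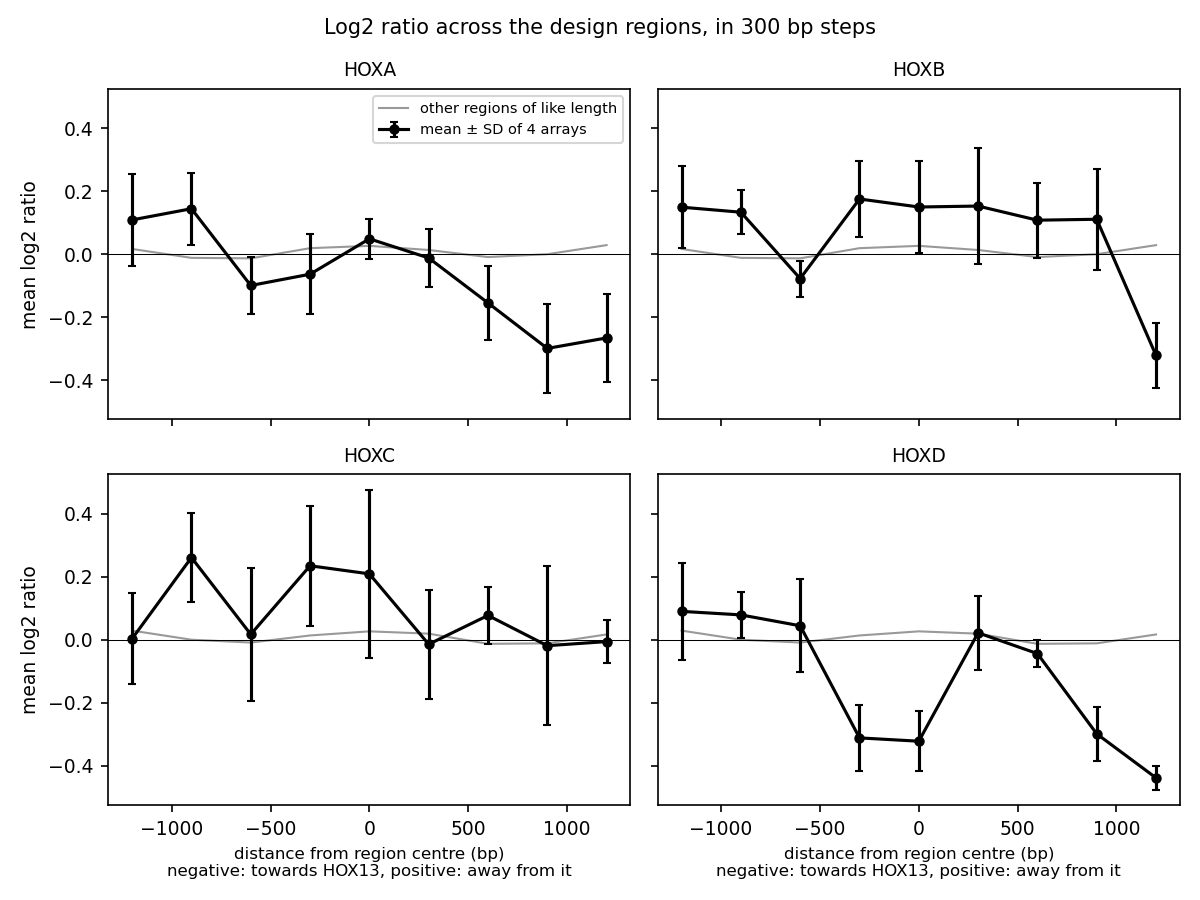
Mean log2 ratio (vertical axis) by distance from the centre of the design region (horizontal axis, bp, positive away from HOX13), mean ± SD of 4 arrays for each cluster, with other design regions of about the same length in grey. Steps below 0 by more than their SD are at -600, 600, 900 and 1200 bp in HOXA. Such steps are at -600 and 1200 bp in HOXB and at -300, 0, 600, 900 and 1200 bp in HOXD, with none in HOXC. Steps above 0 by more than their SD are at -900 bp in HOXA and at -1200, -900, -300 and 0 bp in HOXB. Those in HOXC are at -900 and -300 bp, and that in HOXD is at -900 bp.

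HOX probes were shorter than those of the rest of the array. Of the single-match HOX probes 79.7% were 50 bases long, against 68.0% elsewhere, and these averaged 0.0077 ± 0.093 in HOX and 0.017 ± 0.053 elsewhere (n = 4). HOX probes of 51 to 55 bases averaged -0.10 ± 0.16, and those elsewhere -0.090 ± 0.119. At equal length, HOX probes thus differed from the others by less than the spread of the arrays. After subtraction of the mean of each probe length, 8 members were higher and 4 lower, against 17.8% and 15.5% of all design regions under that setting.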

How the data were processed

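The authors deposited, for each of 4 two-colour arrays, 1 log2 ratio per probe, written by NimbleScan per the file headers. The base of the logarithm is not written there and was taken as 2. Each header gives a biweight mean and the deposited medians are near 0, so that mean was read as already subtracted. The sources used here do not give a genome build, a background correction or NimbleScan's version. Per the labels, cells were fixed with 1% formaldehyde for 10 min, sheared to about 500 bp, precipitated with 5 µg of antibody and amplified, and 1 µg was labelled, with induced DNA always in Cy5.

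From the files, each array was centred on its median, and probes were averaged per design region (at least 5 probes) and per 500 bp bin (at least 3). Both were fitted over the whole array by an intercept-only model (limma 3.58.1, R 4.3.3, two-sided, Benjamini-Hochberg, threshold 0.05), which was tested on simulated data. Cluster values were tested over arrays by exact sign flips. Named regions are all called members and the highest and lowest of each cluster, and named bins the highest and lowest of each cluster. Members of the comparison of promoter sides named in the text were picked after their values were seen. The members and lists were chosen with earlier results of these data known. Having 4 arrays limits how precise each value is. Intensities of the single channels were not analysed here.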

Additional observations from a re-analysis of the deposited data

Results flagged for a closer look

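Dixon's test over the 4 arrays was applied to 39 values, and 2 exceeded its 95% critical value, as many as the 2 that chance gives at about 1 in 20. The mean of HOXA stood at 0.087 in array 1, against -0.13 to -0.10 elsewhere. The difference between the sides of the HOXD promoters stood at -0.046 in array 2, against -0.19 to -0.17 elsewhere.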

How the results depend on the processing

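The 3 strongest lower members (HOXA regions 8 and 11 and HOXD region 2) kept their calls in 16 of 17 other settings each, the exception being a minimum change of 0.5 log2, which left 0 members and 0 bins in either direction (limma treat; at an unadjusted p under 0.05, 0 and 0 members and 3 higher and 6 lower bins). HOXB region 5 kept its call in 8 of 17, and HOXD region 8 was called with array weights. No named member changed sign. Members higher numbered 8 after subtraction of probe length means (17.8% of all regions), 9 with array weights (7 lower, against 19.2% higher and 20.3% lower of all regions), 3 with series N39 alone and 0 with series N44 alone, and 0 to 8 with each array left out. Bins higher and lower numbered 64 and 70 of 435 at 250 bp, 17 and 23 of 122 at 1000 bp, and 7 and 19 with series N44 alone, and higher bins 8 to 34 with each array left out. The shares of all bins under these settings are not given here. With medians over probes, HOXA minus HOXB was -0.16 and the HOXA side difference -0.24. Bin size changed the number tested and the settings with fewer arrays the number of arrays, and elsewhere the cause was not tested. The HOX level against all other regions was -0.073 to 0.021 and changed sign in 3 of 13 settings, and HOXA minus HOXD in 1 of 14. The other cluster differences, and those between cluster parts and promoter sides, kept their sign in every setting run. No paired analysis was possible because each array already holds both arms of the comparison.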
